A study of Mus musculus with 5 samples.

Results

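This account describes 10 genes of transforming growth factor beta (TGF-beta) signalling in tumor-specific mouse CD4+ T cells: the ligand Tgfb1, the receptors Tgfbr1, Tgfbr2 and Tgfbr3, the signal carriers Smad2, Smad3 and Smad4, and the regulators Smad7, Ski and Skil. Members were all probe sets whose platform gene symbol is 1 of these names, which gave 24 probe sets of the 45037 on the array that are not controls. The series holds 5 Affymetrix arrays of CD4+ T cells with a transgenic T cell receptor specific for MOPC315, a mouse myeloma line, from adult SCID mice of 7 to 12 weeks on a Balb/c background. The 3 activated samples were T cells sorted as CD4+ and GB113+, at a purity of at least 95%, from axillary nodes draining a subcutaneous inoculum of 100000 MOPC315 cells in 250 µl of growth factor-reduced Matrigel, on day 8 after injection. The 2 naive samples came from nodes of uninjected mice of the same kind, although the protocol fields of these samples repeat the tumor challenge and their titles and descriptions do not. Nodes of 12 to 15 mice were pooled per activated sample, each sample was a separate experiment, and no group given Matrigel alone was analysed here. All hosts carry the SCID defect, which removes T and B cells other than those of the transgenic receptor.

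TGF-beta is secreted as a latent dimer and, once released, is bound by the type II receptor, which then phosphorylates the type I receptor. The type I receptor phosphorylates Smad2 and Smad3, which join Smad4 and act on genes in the nucleus. Smad7, itself induced by the signal, blocks the type I receptor and recruits ubiquitin ligases of the Smurf family to it, while the co-repressors Ski and SnoN (the product of Skil) bind the Smads and hold their targets silent until they are degraded. In CD4+ T cells the pathway restrains activation and Th1 effector genes and takes part in the making of regulatory and Th17 cells. The comparison asks which of these transcripts differ between cells activated in the tumor-bearing animal and their naive counterparts.

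Promoter windows from RefSeq were available for 5 of the 10 genes, 6 windows in all, on build GRCm38.p6. Those of Tgfb1, Tgfbr2 and Ski are shown because, of the 5, these genes had the largest differences between the groups, the ligand lying higher and the other genes lower in activated cells. Each is the 250 bases upstream of the start, 5′ to 3′ on the gene's strand, and capitals mark the letters CAGAC or, for the other strand, GTCTG, which are contained in known Smad-binding elements.
Tgfb1 (chr7:25686752-25687001, plus strand): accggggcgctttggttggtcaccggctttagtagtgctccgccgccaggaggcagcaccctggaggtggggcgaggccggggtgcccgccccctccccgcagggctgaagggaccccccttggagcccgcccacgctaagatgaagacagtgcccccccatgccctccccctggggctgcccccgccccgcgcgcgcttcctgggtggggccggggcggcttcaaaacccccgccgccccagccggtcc
Tgfbr2 (chr9:116175364-116175613, minus strand): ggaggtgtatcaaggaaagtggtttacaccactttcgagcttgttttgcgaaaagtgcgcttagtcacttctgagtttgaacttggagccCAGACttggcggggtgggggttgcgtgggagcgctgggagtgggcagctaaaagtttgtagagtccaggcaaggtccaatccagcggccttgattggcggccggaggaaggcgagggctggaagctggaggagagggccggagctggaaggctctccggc
Ski (chr4:155222536-155222785, minus strand): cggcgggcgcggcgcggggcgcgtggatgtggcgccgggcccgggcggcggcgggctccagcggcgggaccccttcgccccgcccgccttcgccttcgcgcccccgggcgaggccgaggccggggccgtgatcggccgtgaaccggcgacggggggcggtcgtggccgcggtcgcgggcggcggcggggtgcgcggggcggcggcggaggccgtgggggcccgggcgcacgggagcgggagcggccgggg
CAGAC or GTCTG was found 1 time in the Tgfbr2 window, 160 bases before the start, and 0 times in those of Tgfb1 and Ski. The letters are common: 42.2% of all 32851 windows of this length held them. The longer palindrome GTCTAGAC, in which neither shorter string is contained, was in 0 of the 6 windows of these genes and in 0.167% of all windows. The windows of Tgfb1 and Ski were rich in G and C, at 75.2% and 87.6%, against 58.4% for Tgfbr2 and a median of 52.4% over all windows.

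Activated cells had lower Smad7, Skil and Smad4 than naive cells. By their leading probe sets, that is the probe set of a gene with the highest mean over the 5 arrays, Smad7 was 2.40-fold, Skil 2.23-fold and Smad4 1.65-fold lower. The Smad4 difference lay close to the threshold of the test described below, and did not pass on leaving out any 1 of the activated arrays. The ligand Tgfb1 was 1.57-fold higher and the receptor Tgfbr2 1.46-fold lower, and neither passed the test. Of the 24 probe sets 23 were tested, since 1 of Tgfbr2 lay below the intensity filter on all arrays; the filter asks for an intensity over the array's 40th percentile on 2 or more arrays. Of the 23, limma's moderated test called 4 lower and 0 higher, with a threshold of 0.05 on p-values adjusted by the Benjamini-Hochberg method over 29240 probe sets. Across all tested probe sets 7.74% were called, 2.94% lower and 4.8% higher. At an unadjusted p under 0.05, 9 of the 23 were lower and 1 was higher, against 3194 lower and 3362 higher of all 29240. The 23 are repeated measures of 10 genes, so these counts are not of separate genes. By leading probe set, 3 of the 10 genes were called lower and 0 higher, against 3.19% and 5.52% of all tested genes. The median log2 fold change (activated minus naive, on the scale of log2(intensity + 16)) was -0.31 over the 23 and -0.03 over all tested probe sets. The activated arrays lay below both naive arrays for 10 of the 23 and above both for 1, against 20.3% and 18.8% of all tested probe sets, or 39.1% with no overlap in either direction. Of the 10 genes, 5 had all tested probe sets below 0, 1 had all above 0 and 4 had both. By probe set, 15 of the 23 were below 0, against 53.3% of all tested probe sets.

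**Figure D1:**
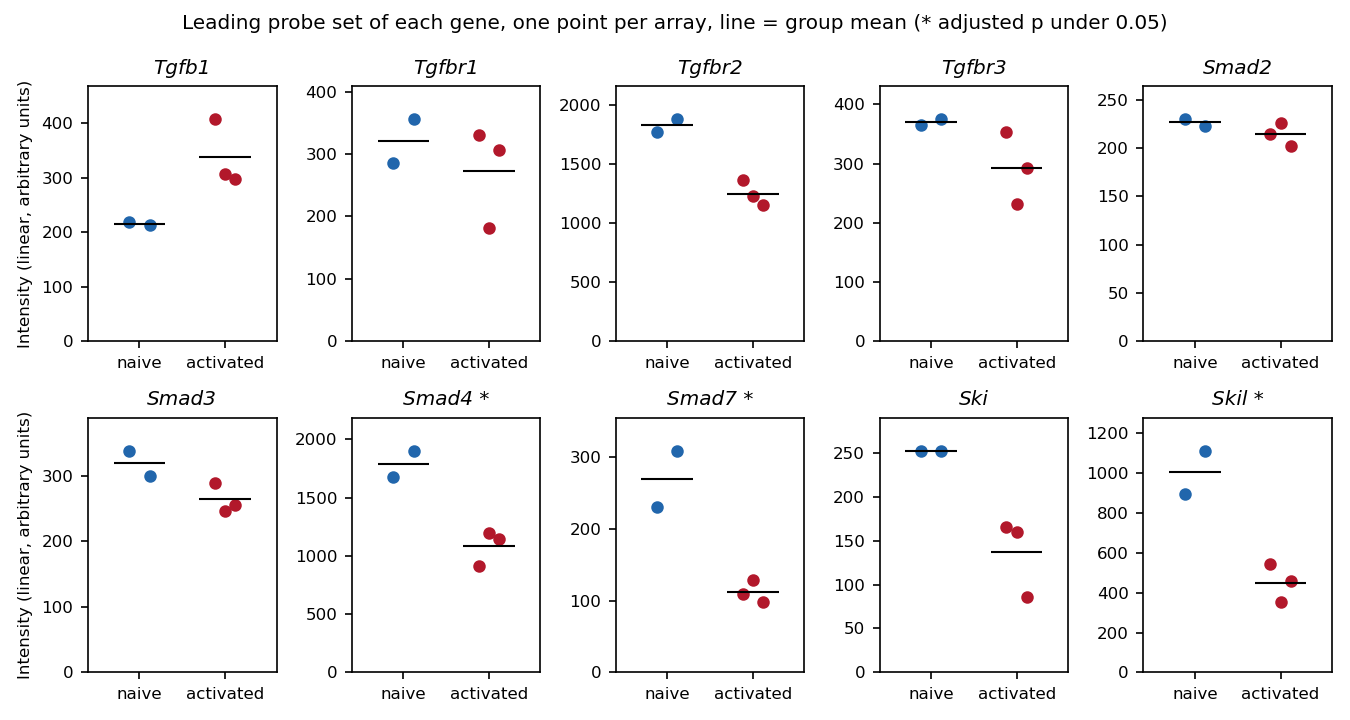
Intensity (linear, arbitrary units, axis from 0) of the leading probe set of each of the 10 genes on the 2 naive arrays (blue) and 3 activated arrays (red), with a line at each group mean and an asterisk where the adjusted p was under 0.05. Smad7 lay at 98.5 to 129.1 in activated cells and at 230.2 and 309.1 in naive cells, and the vertical scale differs between panels.

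A few facts of the arrays bear on these values. T cell identity was plain on all 5: 11 defining CD4 T cell markers with a probe set of their own, Cd3d, Cd3e, Cd3g and Cd4 among them, were all above the filter, with a summed intensity of 18874 to 20875 on activated and 17313 to 17930 on naive arrays. Activated replicate 1 stood apart in summed markers of other cells. The 12 macrophage and monocyte markers, 11 of them above the filter, summed to 3083 on it. The sums were 222.2 and 1139 on the other activated and 579.7 and 269.5 on the naive arrays. Lyz2 made up most of the sum on activated replicate 1, at 1953.9, and Csf1r, Itgam, Cd68, C1qa and Ccr2 were also highest there. Mrc1, Cd14, C1qb, C1qc and Adgre1 were instead highest on activated replicate 3, and Fcgr1 on naive replicate 1. The 8 NK cell markers, 7 above the filter, summed to 4715 on activated replicate 1 against 1322 and 1332, and 1667 and 1410.1. The 7 neutrophil markers, 5 above the filter, summed to 980.4 on activated replicate 1 against 72.8 to 115.3 on the other 4 arrays. The 8 dendritic cell markers, 6 above the filter, summed to 352.7 against 88.7 to 131.9. Of the 2 CD8 markers, Cd8b1 was lower on the activated arrays, at 246.8 to 326.5 against 797.6 and 995.7, while Cd8a overlapped, at 79.2, 24.4 and 18.7 against 54 and 44.6. The 8 B cell markers, 4 above the filter, summed to 131.1 to 173.1 against 85.3 and 86.4, with Cd22 the 1 called marker among them (59.7 to 92.6 against 30.7 and 20.5), and those of endothelium and stroma (12 markers, 8 above the filter) to 445.6 to 538.2 against 311 and 316, with Pecam1 the 1 called marker (258.6 to 345.4 against 157.9 and 168.7). The part of these markers in the results below was not tested. The bacterial bioC control, which is spiked in before hybridisation, was high on activated replicates 1 and 2 and naive replicate 1 and low on the other arrays. For each called probe set of the 10 genes, the difference is therefore also given within the high and within the low side. In sorted bulk samples, fewer cells that express a gene and less RNA of it per cell cannot be told apart.

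The ligand was measured by 2 probe sets. Tgfb1, the main TGF-beta of lymphocytes, read 407.4, 307.6 and 296.9 units on activated replicates 1 to 3 and 218.6 and 212.4 on the naive pair (probe set 1420653_at). All activated arrays were above both naive arrays, and the highest was activated replicate 1, the array with the highest sums of macrophage, neutrophil and NK markers. The log2 fold change was 0.60 ± 0.19 (SE, 95% interval 0.17 to 1.02), with an adjusted p of 0.094 in limma's test, so the difference did not pass; without activated replicate 1 it was 0.46 (adjusted p = 0.23). The dimmer probe set, 1445360_at, read 45, 37.8 and 33.9 against 37.7 and 22.1, and the groups overlapped.

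Of the receptors, none passed the test on any probe set. Tgfbr2, the type II receptor that binds the ligand, read 1367, 1229 and 1152 on the activated and 1775 and 1879.6 on the naive arrays (1426397_at). The groups did not overlap, and the gap between them was 408.7. The log2 fold change was -0.55 ± 0.16 (SE, 95% interval -0.90 to -0.19; limma adjusted p = 0.068). It passed with quantile normalization (adjusted p = 0.046) and with the bioC side as a block (adjusted p = 0.021). The log2 difference was -0.45 within the high bioC side and -0.70 within the low side. A second Tgfbr2 probe set, 1425444_a_at, read 128.8, 70.2 and 79.9 against 129.8 and 37.9 and gave no direction, and the mean over the tested Tgfbr2 probe sets was -0.14. The third, 1422019_at, was the untested one, at 3.2, 7.3 and 9.4 against 5.8 and 8.7.

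Tgfbr1, the type I receptor kinase, read 331.1, 182 and 306.3 on the activated and 286.3 and 356.2 on the naive arrays (1420895_at). These overlapped, with a log2 fold change of -0.26 and an interval of -0.81 to 0.30 (limma adjusted p = 0.61). Its other probe sets were near the filter and lay at 0.07 and 0.09 on the log2 scale, and the mean of the 3 was -0.03. Tgfbr3, the co-receptor betaglycan that presents ligand to the type II receptor, read 353.7, 231.6 and 292.5 against 365.3 and 374.9 (1433795_at). The groups did not overlap but lay only 11.6 units apart, and the log2 fold change of -0.34 (interval -0.79 to 0.11; limma adjusted p = 0.36) did not pass. Its dim probe set 1425620_at read 60.1, 33.2 and 24.3 against 63.9 and 6.2, so the naive pair enclosed all activated values. With it averaged in, the log2 fold change of Tgfbr3 was -0.0021.

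Among the signal carriers, Smad4 fell and the receptor-activated Smads did not pass. Smad4, the partner shared with the bone morphogenetic protein branch, was represented by 3 probe sets. The brightest, 1422486_a_at, read 913.7, 1199 and 1142 on the activated and 1677 and 1903 on the naive arrays. The second, 1422487_at, read 737.7, 916.2 and 748.2 against 1204.5 and 1429. On both, all activated arrays were below both naive arrays, with log2 fold changes of -0.72 ± 0.18 and -0.71 ± 0.17 (SE; limma adjusted p = 0.035 and 0.036). The third, 1422485_at, read 556.9, 888.6 and 587.2 against 1132 and 809.9, so activated replicate 2 overlapped naive replicate 2, and its value of -0.52 did not pass (limma adjusted p = 0.22). Within the high and low bioC sides the log2 difference was -0.67 and -0.73 on the leading probe set and -0.54 and -0.92 on the second. The Smad4 calls lay close to the threshold: the leading probe set lost its call on leaving out any 1 of the 5 arrays, with log2 fold changes of -0.81 to -0.60. The second probe set also lost its call on leaving out any array, at -0.83 to -0.59. Both calls were lost when no filter was used and when eBayes had no trend, and that of the second also with array weights, at -0.67 (limma adjusted p = 0.053).

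Smad2, phosphorylated by the type I receptor, read 214.8, 225.8 and 202.9 against 230.2 and 223.5 (1420634_a_at), an overlap. Its log2 fold change was -0.08 with an interval of -0.46 to 0.30 (limma adjusted p = 0.85). The dimmer probe set 1442062_at read 32.4, 16.9 and 38 against 37 and 50.7, also an overlap, at -0.43 (interval -1.03 to 0.18; limma adjusted p = 0.40), and the mean of both was -0.25. Smad3, the DNA-binding partner of Smad2 in this branch, read 289.6, 247 and 255.7 against 338.5 and 300.4 (1454960_at). The activated arrays were lower by a gap of 10.8, and the log2 fold change was -0.26 with an interval of -0.65 to 0.13 (limma adjusted p = 0.42). The other 2 Smad3 probe sets, both dimmer, lay at 0.30 each, and averaging the 3 turned the sign to 0.11.

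**Figure D2:**
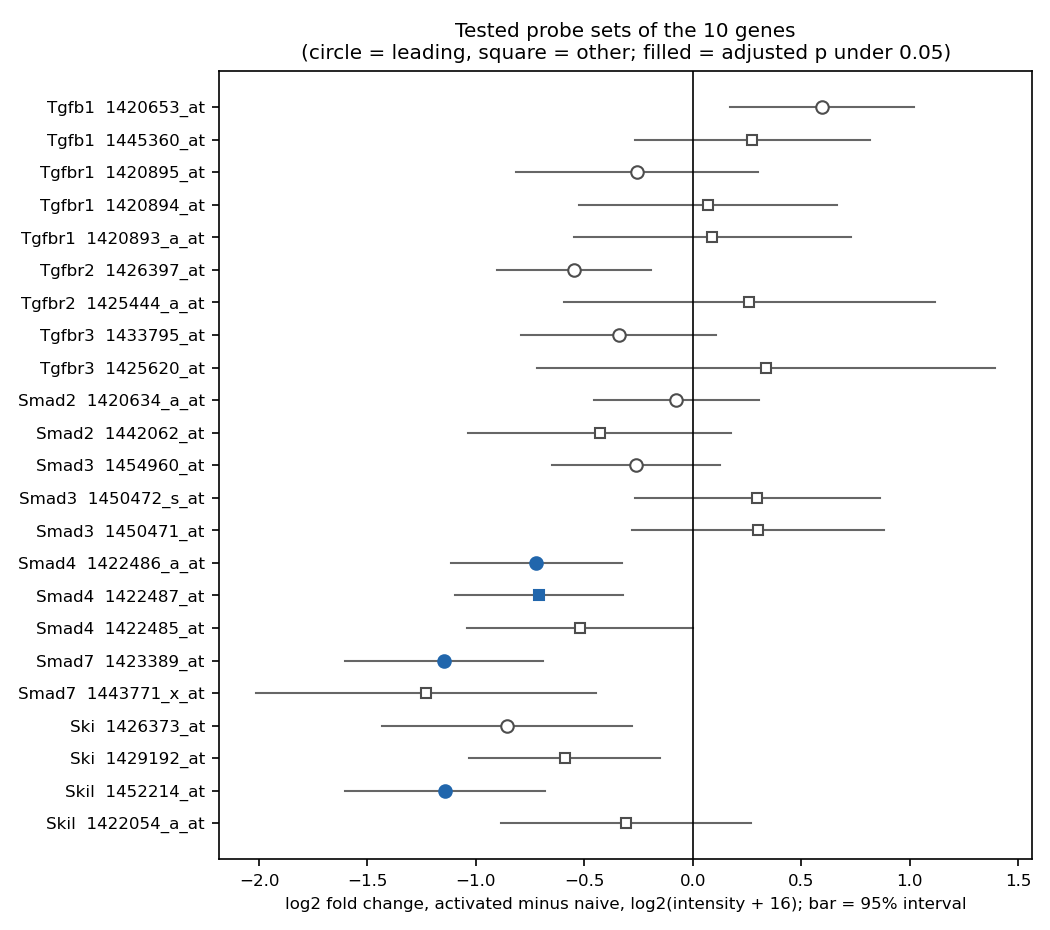
Log2 fold change (activated minus naive) of the 23 tested probe sets of the 10 genes, with the 95% interval of limma's moderated test; circles are leading probe sets, squares the others, and filled points had an adjusted p under 0.05. The 4 filled points are 2 of Smad4, 1 of Smad7 and 1 of Skil, and the Tgfb1 points at 0.60 and 0.27 lie on the other side of 0.

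The negative regulators had the largest differences of the 10 genes by leading probe set. Smad7, the inhibitory Smad, read 109.7, 129.1 and 98.5 in activated cells and 230.2 and 309.1 in naive cells (1423389_at). Each activated array was at least 101.1 units below each naive array. The log2 fold change was -1.15 ± 0.20 (SE, 95% interval -1.60 to -0.69; limma adjusted p = 0.0077), and the difference was -0.87 within the high and -1.51 within the low bioC side. A second probe set with a suffix that marks possible cross-hybridisation, 1443771_x_at, read 107.8, 45.8 and 100.3 against 144.4 and 301. It also had no overlap, with a log2 fold change of -1.23 ± 0.35 that did not pass (limma adjusted p = 0.064), although it did with the bioC side as a block (adjusted p = 0.037) and without naive replicate 1 (-1.72, adjusted p = 0.022). Without naive replicate 2 it stood at -0.74 (adjusted p = 0.34) and without activated replicate 2 at -0.91 (adjusted p = 0.18).

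Skil, which encodes the co-repressor SnoN, read 542.2, 352.3 and 456 on the activated and 896.9 and 1111 on the naive arrays (1452214_at). The lowest naive array exceeded the highest activated array by 354.7. The log2 fold change was -1.14 ± 0.21 (SE, 95% interval -1.61 to -0.68; limma adjusted p = 0.0085), with -1.01 and -1.26 within the high and low bioC sides. The dim probe set 1422054_a_at read 38.1, 22.4 and 19.3 against 39.4 and 32.5, an overlap, at -0.31, and with both averaged Skil stood at -0.73 and kept its call.

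Ski, the related co-repressor, read 166, 160.1 and 85.3 against 252.2 and 251.7 on its leading probe set, 1426373_at. On 1429192_at it read 114.1, 143.7 and 160.8 against 227.1 and 205.9. On both, all activated arrays were below both naive arrays, but activated replicate 3 was the lowest on the first and the highest on the second. The log2 fold changes of -0.86 ± 0.26 and -0.59 ± 0.20 (SE; limma adjusted p = 0.078 and 0.11) did not pass. The leading value was -0.58 and -1.40 within the high and low bioC sides. The mean of both probe sets passed, at -0.72 (limma adjusted p = 0.013), as did the leading one with the bioC side as a block, at -0.93 (adjusted p = 0.019).

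Without naive replicate 2, 0 of the 23 probe sets were called and 8 were lower at an unadjusted p under 0.05, with Smad7 at -0.95 (limma adjusted p = 0.064) and Skil at -0.99 (adjusted p = 0.069). Over all probe sets 390 of 28113 tested were called lower without that array, against 859 of 29240 on all arrays. Without activated replicate 1, the array with the highest sums of macrophage, neutrophil and NK markers, 2 were called lower, and the same number without activated replicate 2 or 3; over all probe sets 489, 324 and 645 were. With the bioC side as a block 7 were called lower, as were 1486 of all 29240 probe sets. The cause of these changes in counts was not tested.

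**Figure D3:**
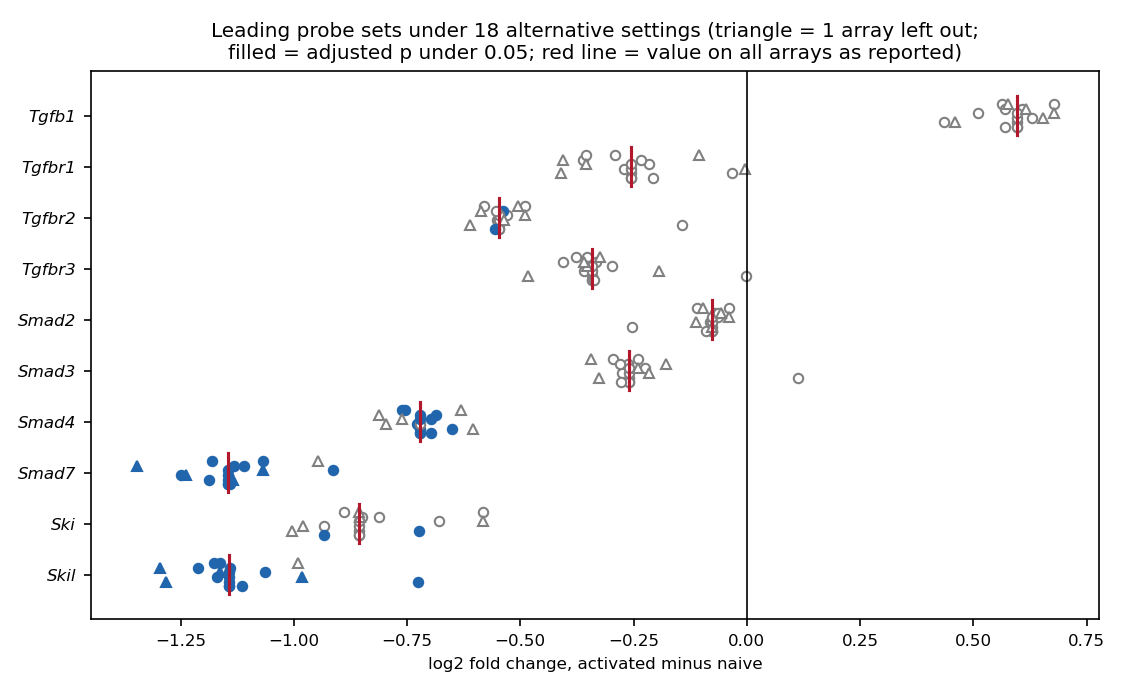
Log2 fold change of the leading probe set of each gene under 18 alternative settings (triangles leave out 1 array, circles change the processing, filled points had an adjusted p under 0.05) beside the reported value (red line). Smad7 ranged from -1.35 to -0.91 and Skil from -1.30 to -0.73, and the sign turned only for Smad3, at 0.11 with its probe sets averaged.

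The expression profiles most like those of the called genes were found as the smallest root mean square difference of log2 values over the 5 arrays, each profile centred on its mean, among 12039 genes. Those of Smad7 were Dhx58, which encodes the RNA sensor regulator LGP2, at 0.0775, the nutrient-sensing GTPase Rragd at 0.0945 and Mitd1 at 0.109, where the median gene was at 0.613. Those of Skil were the zinc finger factor Rreb1 at 0.0659, the ubiquitin ligase Znrf3 at 0.0671 and the transcription factor Nfic at 0.0832. Those of Smad4 were glutamine synthetase, Glul, at 0.0398, Aadac at 0.0504 and Cideb at 0.0516. With 5 arrays such a likeness is mostly a like difference between the groups.

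Other genes of the pathway were read from lists by their leading probe sets. Of 67 tested genes in 5 lists, 2 rose and 6 fell, against 5.52% and 3.19% called higher and lower among the leading probe sets of all 12873 tested genes. Their median log2 fold change was -0.23, against -0.03 over all. Of the 67, 48 were below 0. The share below 0 over all tested probe sets, leading or not, was 53.3%, which is not a count of genes. Over all 166 tested probe sets of these genes 3 were called higher and 8 lower, against 4.8% and 2.94% of all tested probe sets. The median over the 166, not only the leading ones, was -0.08. By all probe sets it was 0.01 for the list of receptor and Smad turnover and 0.09 for the non-Smad branch. In the list of ligands and their activation, 0 of 9 tested genes were called in either direction by limma, and 0 at an unadjusted p under 0.05. Tgfb2 and Tgfb3, the other TGF-beta ligands, did not pass the filter, and Nrros, which tethers latent TGF-beta, read 360.2, 380.6 and 305 against 371.5 and 412.3. Among 10 tested receptors of the wider family, Acvr1b, a type I activin receptor, fell. It read 187.6, 201.9 and 177.9 on the activated and 392.2 and 313.3 on the naive arrays, with no overlap, at -0.84 ± 0.18 (SE, limma adjusted p = 0.0199). It lost its call without any 1 of activated replicates 1 to 3 or naive replicate 1 (-0.88 to -0.68) and under the replicate block (-0.80).

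Of 12 tested other Smads and nuclear partners, 1 rose and 1 fell, against 5.52% and 3.19% of all tested genes. Tgif1, a homeodomain co-repressor that binds Smad2 and Smad3, read 115.2, 105.2 and 118 on the activated and 29.2 and 23.1 on the naive arrays. The groups were far apart, at 1.61 ± 0.20 (SE, limma adjusted p = 9.97e-04), and the call held under all 18 alternatives. Smad5, a Smad of the bone morphogenetic protein branch, read 93, 85.7 and 115.5 against 206.5 and 235.6, at -1.06 ± 0.20 (SE, limma adjusted p = 0.0094). Averaging its 3 probe sets ended the call, at -0.46, as did leaving out activated replicate 2 (-0.98) or naive replicate 2 (-0.97). Smad6, the other inhibitory Smad, was below the filter, at 2.4, 8.5 and 3.7 against 7.5 and 3.4.

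Of 26 tested genes of receptor and Smad turnover, 0 rose and 3 fell, against 5.52% and 3.19% of all tested genes. At an unadjusted p under 0.05, 0 of the 26 were higher, against 3362 of all 29240 tested probe sets. Over all 73 tested probe sets of these genes 1 was called higher and 5 lower, with a median of 0.01. The lack of rises therefore holds only for the leading probe sets. Smurf2, a ubiquitin ligase that Smad7 brings to the receptor, read 169.2, 219.9 and 182.8 against 333.1 and 384.2, at -0.86 ± 0.19 (SE, limma adjusted p = 0.0198). Leaving out activated replicate 1 (-0.79), activated replicate 3 (-0.84) or naive replicate 2 (-0.76) ended the call. Smurf1, its close relative, read 45.8, 48.4 and 58.5 against 101.1 and 93.8, at -0.77 (limma adjusted p = 0.048), a call lost on leaving out any array, at -0.85 to -0.71, and in 6 of the 13 other settings, among them averaged probe sets, at -0.25. The other tested Smurf1 probe set lay on the other side of 0. Pmepa1, a feedback gene that sequesters receptor-activated Smads, read 103, 95 and 123.2 against 223.6 and 266.2, at -1.09 ± 0.19 (SE, limma adjusted p = 0.0077). Another Pmepa1 probe set lay at 0.09, the mean of its 3 was -0.42 and did not pass, and leaving out activated replicate 2 (-1.02) or naive replicate 2 (-0.97) also ended the call.

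Of 10 tested genes of the non-Smad branch, Map3k7, which encodes the kinase TAK1, rose by 0.95 (limma adjusted p = 0.032), from 136.9 and 125.4 to 340.8, 280.1 and 199.6. Of its 6 tested probe sets 3 lay on the other side of 0, their mean was 0.16, and the call was lost without activated replicate 1 or 2 or either naive array (from 0.78 upwards), with no filter and without the trend. Daxx, an adaptor between the receptor and the kinase JNK, read 640.2, 586.9 and 454.4 against 932.4 and 928.3, at -0.73 (limma adjusted p = 0.041), a call lost on leaving out any array (-0.83 to -0.59), under the replicate block (-0.59), with no filter and without the trend.

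**Figure D4:**
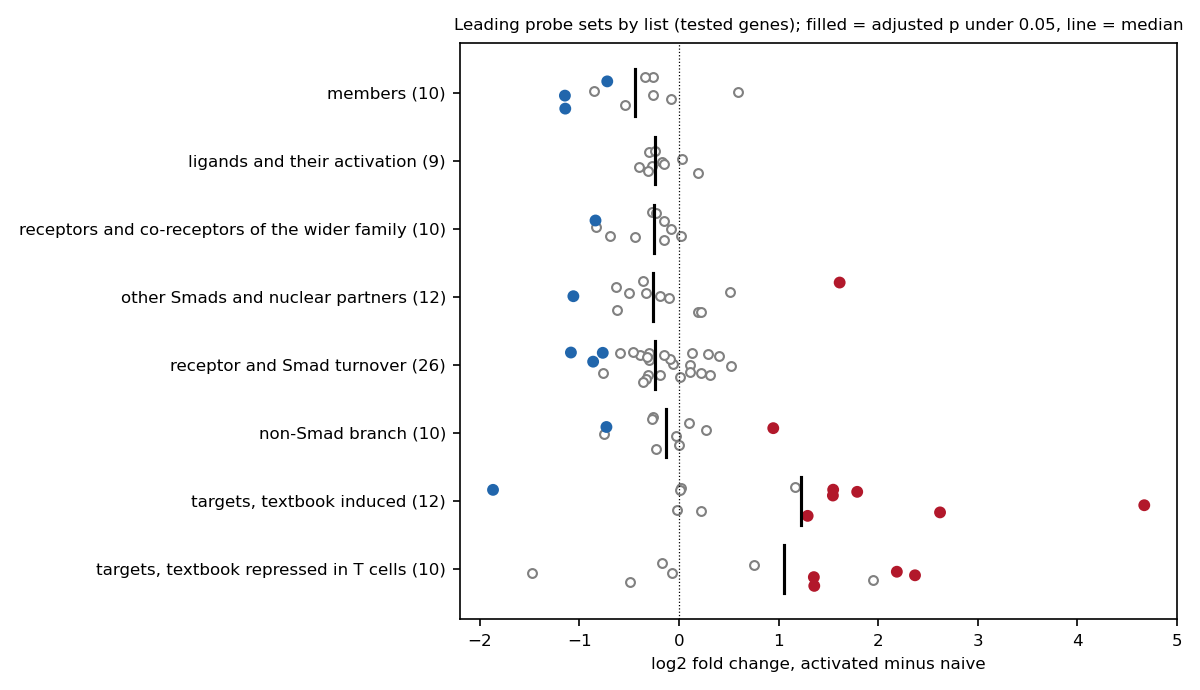
Log2 fold change (activated minus naive) of the leading probe set of each tested gene, by list, with the number of genes in brackets, filled points where the adjusted p was under 0.05 and a line at each median. The 5 pathway lists have medians from -0.26 to -0.13, and the target lists have medians of 1.23 and 1.05.

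Genes listed as targets moved in both directions. Of 12 tested genes listed as induced by TGF-beta, 6 rose and 1 fell, with a median of 1.23. Id2 and Id3 are among the 6. Whether TGF-beta induces each listed gene in these cells was not tested. The list does not hold Smad7, itself induced by the signal, or the feedback gene Pmepa1, which were lower, at -1.15 and -1.09. Among the leading probe sets of all tested genes 5.52% were called higher and 3.19% lower, with a median of -0.03. Itgae, the integrin CD103 that TGF-beta induces on T cells, was the faller, at 18, 7.6 and 14.4 against 91.3 and 88.5, and its second probe set fell too. The largest rises were Ctla4, the inhibitory receptor, at 4.67 from naive intensities near the filter, so that the pseudocount sets part of its size, Bhlhe40, a transcription factor of effector T cells, at 2.62, and Gadd45b, a stress sensor upstream of p38, at 1.79 ± 0.23 (SE, limma adjusted p = 0.0011). Gadd45b read 468.4, 309.3 and 314.1 against 105.6 and 79.8. Foxp3, the regulatory T cell factor, was near the filter, at 19.1, 11.6 and 6.7 against 7.2 and 17.

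Of 10 tested genes listed as repressed by TGF-beta in T cells, 4 rose and 0 fell, with a median of 1.05, and 1 was lower at an unadjusted p under 0.05. The shares called among all tested genes were 5.52% higher and 3.19% lower. The largest rises were Ifng, the Th1 cytokine, at 2.37, Eomes, a T-box factor of effector cells, at 2.19, and Fasl, the death ligand, at 1.36. Eomes read 696.4, 281.6 and 440.9 on the activated and 154.9 and 43.4 on the naive arrays (limma adjusted p = 0.014). It is also an NK cell marker and was highest on activated replicate 1, without which it stood at 1.87 and did not pass (adjusted p = 0.058); it also lost its call without naive replicate 2, at 1.43, with no filter and with robust variances.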

How the data were processed

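Biotin-labelled cRNA was made from 6 µg of Trizol-extracted RNA, per the labels' protocols. The deposited values were 1 linear intensity per probe set and array for 45101 probe sets, 64 of them controls. The sources used here give no summary method, detection calls or scaling. The mean after trimming 2% at each end was 100 on every array, so a change is measured against the bulk of the array. Of the probe sets, 34945 had 1 gene symbol in the platform annotation, 932 several and 9160 none, and those with several named nothing. The 24 probe sets of the 10 genes each had 1 symbol.

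Intensities were transformed as log2(intensity + 16), which shrinks changes of dim probe sets. Probe sets above the 40th percentile of their array (10.5 to 13.4 units) on at least 2 arrays were tested, 29240 in all, by limma (version 3.58.1 in R 4.3.3): lmFit, then eBayes with a trend on intensity. Tests were two-sided, p-values were adjusted by the Benjamini-Hochberg method, and the threshold was 0.05. The earlier account of this series tested 1 probe set per gene; that was an alternative here. The code was tested on simulated arrays. Precision is limited by having 3 arrays against 2. The labels call the samples biological replicates, and no 2 arrays shared more than 0.946% of their values.

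The members, the lists and the tests were chosen with earlier results of these data known. Named were all 10 genes with every probe set, in each pathway or target list up to 3 rises and 3 falls among called genes, and Lrrc32, Smad6, Itgae, Foxp3 and Pmepa1 whatever their result. Of 115 list entries 109 had a probe set with 1 symbol; Lrrc32 was not analysed here. For each of the 3 called members with the largest change, the 3 genes with the nearest profile were named.

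Alternatives were no filter or the 60th percentile, pseudocounts of 1 and 64, quantile normalization, median centring, 1 probe set per gene, the mean of a gene's probe sets, eBayes without trend or robust, array weights, blocks for the replicate number or the bioC side, and each array left out in turn. Promoters are RefSeq's, on GRCm38.p6.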

Additional observations from a re-analysis of the deposited data

How the results depend on the processing

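The number of the 10 genes' probe sets called lower, 4 on all arrays, was 2 with no filter, 2 when eBayes had no trend and 7 with the bioC side as a block, and ran from 0 to 3 on leaving out 1 array; the number called higher was 0 under every alternative. Over all probe sets, 1403 were higher and 859 lower. With no filter these were 870 and 510, with 1 probe set per gene 819 and 533 and with averaged probe sets 890 and 516, the last 2 settings testing 12873 and 12902 genes in place of 29240 probe sets. The bioC block gave 1486 lower, and leaving out 1 array 723 to 1331 higher and 324 to 645 lower. In the 5 pathway lists, 6 genes were lower and 2 higher. With the replicate number as a block 3 were lower. The number higher was 1 with no filter, with averaged probe sets and when eBayes had no trend. Leaving out 1 array gave 1 to 3 lower and 1 to 2 higher. In the target lists, 10 were higher and 1 lower, and 2 were lower with the replicate block, with the bioC block and without activated replicate 1; leaving out 1 array gave 1 to 2 lower and 8 to 11 higher. The cause of the other changes was not tested. No called value changed sign. Quantile normalization and median centring moved the median of all probe sets to -0.0324 and -0.0681 from -0.0339.

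The replicate numbers of the labels were shared by 2 pairs of arrays, whose deviations from their group means correlated at 0.17 for number 1 and -0.12 for number 2. The deviations of the 2 naive arrays mirror each other, so these values cannot show whether arrays of the same number were paired. With the replicate number as a block, 4 of the 10 genes' probe sets were lower, 911 probe sets were lower and 1365 higher.

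With 3 arrays against 2 and no detection calls, dim probe sets such as those of Smad6, Foxp3 and the second Tgfbr1, Tgfbr3 and Skil probe sets cannot show whether their transcripts differ.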

Other observations

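Several further genes of the pathway had groups that did not overlap and missed the threshold. They were chosen after their values were seen. A lack of overlap is common: it held for 39.1% of all tested probe sets and for 68 of the 166 tested probe sets of the 5 pathway lists. Crebbp, a histone acetyltransferase that Smads recruit, read 575.7, 595.4 and 475.2 on the activated and 879.9 and 835.8 on the naive arrays, at -0.64 (limma adjusted p = 0.0502). Nedd4l, a ubiquitin ligase of activated Smad2 and Smad3, read 59.9, 48.9 and 43.8 against 91.2 and 102.4, at -0.76 (limma adjusted p = 0.055). Acvr2a, an activin type II receptor, read 32.3, 33.1 and 41.9 against 65.2 and 69.3, at -0.69 (limma adjusted p = 0.083). Eng, the co-receptor endoglin, read 31.1, 12.6 and 15.8 against 52.5 and 40.8, at -0.83 (limma adjusted p = 0.10). Hdac1, a histone deacetylase found in co-repressor complexes, was on the other side, at 1389.5, 1419 and 1775 against 945.5 and 1188, at 0.51 (limma adjusted p = 0.13).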
